A study of Mus musculus with 5 samples.

Results

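The TNF receptor superfamily genes described here are Tnfrsf9, Tnfrsf4, Tnfrsf18, Tnfrsf25, Tnfrsf1a, Tnfrsf1b, Tnfrsf8, Tnfrsf14, Cd27 and Fas, 10 of the 19938 genes measured. They were taken by name, each with its brightest probe set bearing a single gene symbol, and each had 1 such probe set. Natural helper cells, also known as group 2 innate lymphoid cells, are lymphocytes without antigen receptors that secrete type 2 cytokines. The P/I group held 2 arrays of cells kept for 3 days in medium with 60 ng/ml PMA, an activator of protein kinase C, and 500 ng/ml ionomycin, which lets calcium into the cell. The unstimulated (unstim) group held 3 arrays of cells whose RNA was taken right after sorting, with no culture. Both groups came from lungs of naive C57Bl/6 mice of 6 to 8 weeks, sorted as lineage-negative cells with Sca-1, CD127 and CD25 and with low or no c-Kit. No cultured group without PMA and ionomycin is among the samples, so culture and stimulation cannot be told apart. Whether each array stands for separate mice or cultures is not stated, so each p-value reflects how far these samples varied, and that variation may be technical.

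Receptors of this superfamily are membrane proteins with cysteine-rich repeats outside the cell that are clustered by trimeric ligands of the TNF family. Costimulatory members such as 4-1BB (Tnfrsf9), OX40 (Tnfrsf4), GITR (Tnfrsf18) and CD27 recruit TRAF adaptors and activate NF-kB, and they are best known for prolonging the response of activated T cells. TNFR1 (Tnfrsf1a), DR3 (Tnfrsf25) and Fas also carry a death domain inside the cell, through which they can assemble complexes that activate caspases. In innate lymphoid cells of the lung, DR3 and GITR are known as receptors whose ligands raise cytokine output.

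Values are log2 expression levels from RMA, so that 1 unit is a 2-fold change, and differences are P/I minus unstim. The brightness of one probe set says nothing about that of another, so levels are compared between arrays and not between genes. A gene was called when its limma p-value, adjusted over all genes, was under 0.05. Of all genes, 0.737% were called higher and 0.963% lower. The P/I arrays both lay above the 3 unstim arrays for 18.6% of genes and both below them for 14.0%. The limma calls were 147 genes higher and 192 lower, whereas centring the arrays on their medians gave 660 called higher and 526 lower. Intervals are 95% confidence intervals of the fit for single genes, not adjusted for the number of genes.

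Among the 10 receptor genes, 1 was called higher, Tnfrsf9, and none was called lower. The P/I arrays lay above every unstim array for 3 of them (Tnfrsf9, Tnfrsf4 and Cd27) and below every unstim array for 3 (Tnfrsf1a, Tnfrsf1b and Tnfrsf25). The groups overlapped for Tnfrsf18, Tnfrsf8, Tnfrsf14 and Fas. The median difference of the 10 was 0.0043, against 0.00 over all genes, and the single differences ran from -0.67 to 2.88.

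**Figure D1:**
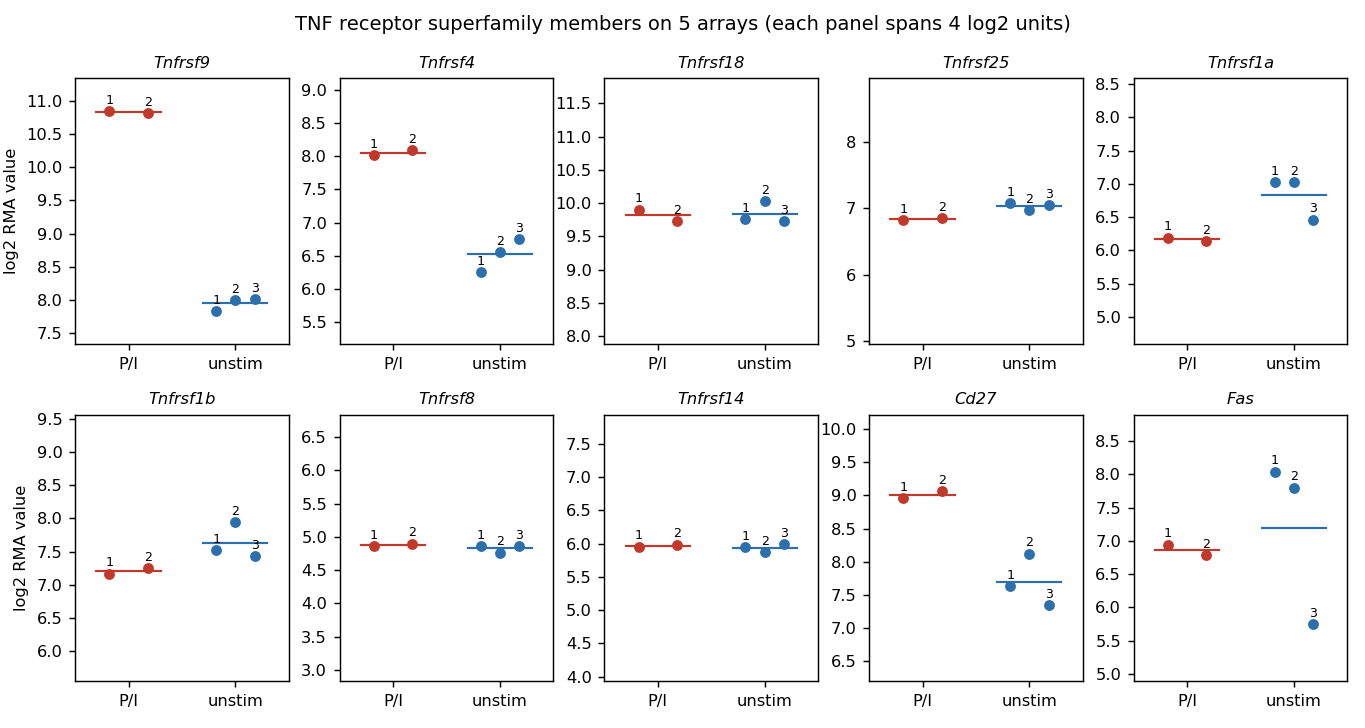
Log2 RMA value of each of the 10 receptor genes on the 2 P/I arrays (red, left) and the 3 unstim arrays (blue, right), numbered by replicate, with the group mean as a line. Every panel spans the same number of log2 units, and Tnfrsf9, Tnfrsf4 and Cd27 lie higher on both P/I arrays than on any unstim array, whereas the unstim values of Fas spread from 5.74 to 8.04.

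The arrays carried defining transcripts of the sorted cells, most of those measured being lower on the P/I arrays. Transcripts of other lung cells were also present, in unequal amounts. Gata3 read 10.18 and 10.22 on the P/I arrays and 10.76, 10.82 and 10.55 on the unstim arrays, and Il2ra (CD25) read 10.87 and 10.91 against 10.72, 10.73 and 10.65. Of 14 markers listed for natural helper cells, 11 were measured here, and Ly6a (Sca-1), Il1rl1 and Areg were not. Both P/I arrays lay below every unstim array for 7 of the 11 and above for 3. Of the 11, 4 (Il7r, Kit, Rora and Id2) were called lower and none higher. Their differences ran from -2.86 (Kit) to 2.41 (Il13). The summed level of 9 epithelial, endothelial and fibroblast markers, added up on the linear scale, was 638.0 and 793.1 on the P/I arrays and 4541, 2776 and 1053 on unstim arrays 1, 2 and 3. Bright genes weigh most in such a sum. The median log2 values of these markers were 5.59 and 5.75 on the P/I arrays, against 8.19, 6.01 and 5.99. Among them, Sftpb (-0.04), Col1a1 (-0.09) and Col3a1 (-0.12) were nearly level between the groups. For 11 myeloid markers the sums were 391.7 and 373.1 on the P/I arrays and 1601, 929 and 578 on the unstim arrays. For 9 T cell markers they were 1993 and 1677 on the P/I arrays and 2325, 3011 and 1908 on the unstim arrays. The myeloid markers Csf1r (4.60 and 4.71 against 4.75, 4.71 and 4.71) and Siglecf (5.72 and 5.75 against 5.72 on each unstim array) were nearly level. Lyz2 read 4.11 and 3.98 on the P/I arrays and 7.88, 7.50 and 6.49 on the unstim arrays. Gata3, Il2ra, Csf1r, Siglecf, Sftpb, Col1a1 and Col3a1 were picked as examples after their values were seen. Xist, the RNA of the inactive X chromosome, read 4.16 and 4.11 on the P/I arrays and 9.09, 10.20 and 9.66 on the unstim arrays, and the labels give no sex. The sex of the mice and the treatment therefore cannot be told apart.

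Tnfrsf9 codes for 4-1BB (CD137), a costimulatory receptor that appears on activated lymphocytes. It read 10.84 and 10.82 on the P/I arrays, against 7.83, 8.00 and 8.02 on the unstim arrays. Both P/I values lay far above the unstim range, and neither group spread by more than 0.19. Tnfrsf9 rose 7.36-fold (95% confidence interval 6.38 to 8.50), a difference of 2.88 ± 0.07 SE with adjusted p = 0.0166. The call ended without unstim array 2 (adjusted p = 0.0903), when no gene at all was called and 3024 had an unadjusted p under 0.05, although the difference was then 2.90. The call also ended against unstim array 3 alone, at a difference of 2.81 (adjusted p = 0.120), and with the replicate number as a block, at 2.91 (adjusted p = 0.167).

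Tnfrsf4 codes for OX40 (CD134), a costimulatory receptor that sustains T cell responses. It read 8.01 and 8.08 on the P/I arrays, against 6.25, 6.56 and 6.75 on the unstim arrays. The groups did not overlap, and the highest unstim value came from array 3. The 2.88-fold difference (95% confidence interval 2.04 to 4.07, or 1.53 ± 0.17 SE on the log2 scale) just missed the call, with adjusted p = 0.0566. It was called under 6 of 20 alternatives, among them 3 further normalizations (adjusted p = 0.0184 to 0.0240), and its adjusted p reached 0.189 without unstim array 2.

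Cd27 codes for a receptor that marks naive and memory T cells and is costimulatory when bound by CD70. It read 8.96 and 9.07 on the P/I arrays, against 7.64, 8.12 and 7.35 on the unstim arrays. The groups did not overlap, and unstim array 2, with the highest sum of T cell markers, was also the highest unstim array for Cd27. The difference was 1.31 ± 0.27 SE, or 2.48-fold (95% confidence interval 1.45 to 4.23), and did not pass the test (adjusted p = 0.115). It was called under 3 of 20 alternatives, with adjusted p running from 0.00896 to 0.300 over all of them. Of the 9 T cell markers none was called, and both P/I arrays lay above the unstim arrays for 1 and below them for 3. The summed level of the 9 on P/I array 1 lay between those on unstim arrays 1 and 3. On P/I array 2 that sum lay below every unstim array. The 1 marker above the unstim arrays was Zap70, which codes for a kinase of T cell receptor signalling, with a difference of 1.33 (adjusted p = 0.0602). The part of T cells in the Cd27 values was not tested.

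Tnfrsf18 codes for GITR, which is bright on regulatory T cells and on natural helper cells. It read 9.90 and 9.73 on the P/I arrays, against 9.76, 10.03 and 9.73 on the unstim arrays. The groups overlapped, and the difference of -0.02 ± 0.13 SE had a 95% confidence interval of 0.764-fold to 1.27-fold (adjusted p = 0.971). Tnfrsf18 is the next gene to Tnfrsf4 on chromosome 4, with no protein-coding gene between them in the RefSeq gene table of GRCm38.p6. The neighbouring genes thus stood at differences of 1.53 (Tnfrsf4) and -0.02 (Tnfrsf18), and their 95% confidence intervals, 1.03 to 2.03 and -0.39 to 0.34 on the log2 scale, did not meet. The difference between the genes was not tested.

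Tnfrsf8 and Tnfrsf14 were nearly level across the 5 arrays. Tnfrsf8, which codes for the lymphocyte activation marker CD30, read 4.86 and 4.90 on the P/I arrays and 4.86, 4.76 and 4.86 on the unstim arrays. Tnfrsf14, which codes for HVEM, the shared partner of LIGHT, BTLA and CD160, read 5.96 and 5.99 on the P/I arrays and 5.95, 5.87 and 6.00 on the unstim arrays. Their intervals were 0.953-fold to 1.12-fold for Tnfrsf8 (adjusted p = 0.527) and 0.935-fold to 1.12-fold for Tnfrsf14 (adjusted p = 0.695). Tnfrsf8 held the same value to 5 decimals on P/I array 1 and unstim array 1, the only one of the 10 with a repeated value, against 62.0% of all genes. Such repeats make spreads look small, and without detection calls a probe set that reads little above background cannot be set apart from a gene whose level did not differ.

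**Figure D2:**
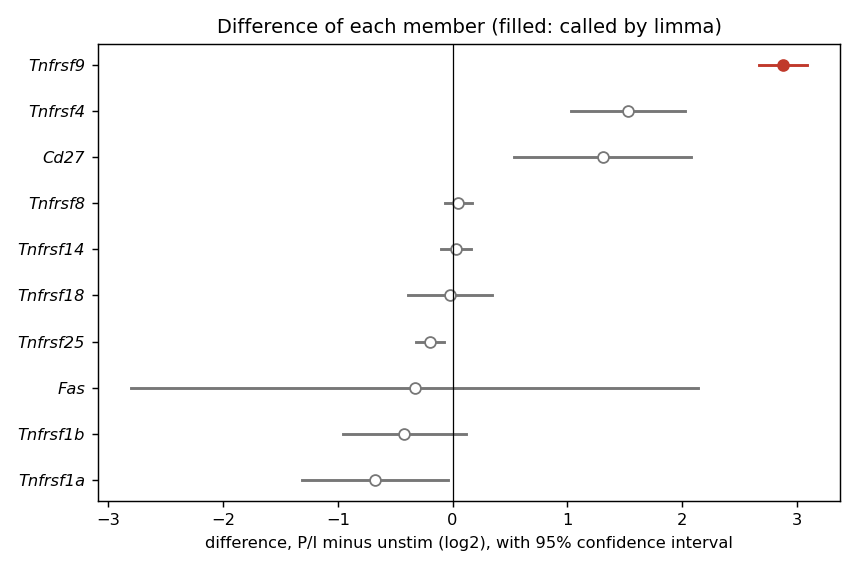
Difference of each receptor gene, P/I minus unstim on the log2 scale, with the 95% confidence interval of the limma fit (n = 2 P/I and 3 unstim arrays). Tnfrsf9 at 2.88 is the called gene (filled), Tnfrsf4 and Cd27 follow at 1.53 and 1.31, and the interval of Fas runs from -2.80 to 2.14.

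Of the 3 receptors with a death domain, Tnfrsf25 and Tnfrsf1a were lower on both P/I arrays without passing the test, and Fas was spread widely among the unstim arrays. Tnfrsf25 codes for DR3, the receptor of TL1A. It read 6.82 and 6.86 on the P/I arrays, against 7.08, 6.97 and 7.05 on the unstim arrays. The groups did not overlap, but the difference was small (-0.19 ± 0.04 SE, or 0.874-fold with a 95% confidence interval of 0.804 to 0.950) and had adjusted p = 0.122.

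Tnfrsf1a codes for TNFR1, the receptor through which TNF acts on most cell types. It read 6.19 and 6.14 on the P/I arrays, against 7.02, 7.03 and 6.46 on the unstim arrays. Unstim arrays 1 and 2 were close to each other, and unstim array 3 lay between them and the P/I arrays. The difference of -0.67 ± 0.22 SE did not pass (adjusted p = 0.231). Without unstim array 3 it was -0.86 and was called (adjusted p = 0.0408), and against unstim array 3 alone it was -0.30 (adjusted p = 0.221). Tnfrsf1b codes for TNFR2, which lacks a death domain and is largely restricted to immune and endothelial cells. It read 7.17 and 7.25 on the P/I arrays, against 7.52, 7.94 and 7.43 on the unstim arrays, a difference of -0.42 ± 0.19 SE (adjusted p = 0.362). The groups of Tnfrsf1b did not overlap, with unstim array 2 the highest. Against unstim array 3 alone the difference was -0.22.

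Fas codes for the receptor of Fas ligand, which starts apoptosis in sensitive cells and is found on lymphocytes, epithelium and endothelium. It read 6.94 and 6.79 on the P/I arrays, against 8.04, 7.80 and 5.74 on the unstim arrays. The P/I values lay inside the unstim range, below unstim arrays 1 and 2 and above unstim array 3. The spread of 2.30 among unstim arrays was the widest of the 10 genes, and the difference of -0.33 ± 0.86 SE had adjusted p = 0.852. Without unstim array 3 it was -1.06 (adjusted p = 0.0978), and against unstim array 3 alone it was 1.12 (adjusted p = 0.207), the opposite direction. Among the unstim arrays, the summed epithelial, endothelial and fibroblast markers were likewise highest on array 1 and lowest on array 3. So were the summed myeloid markers. Both sums were lower still on the P/I arrays. Fas on both P/I arrays lay above unstim array 3, and so did single markers such as Pecam1 and Cd3d. The endothelial gene Pecam1 read 7.41 and 7.57 on the P/I arrays and 9.01, 8.50 and 7.31 on the unstim arrays. The T cell gene Cd3d read 7.68 and 6.75 on the P/I arrays and 8.25, 8.65 and 6.47 on the unstim arrays. By median log2 value, the myeloid markers were highest on unstim array 2 (5.42, against 5.11 on unstim array 1). The T cell sum was highest on unstim array 2. Single markers such as Epcam (5.58 and 5.36 on the P/I arrays, against 5.61, 5.61 and 5.99) had another order. The endothelial gene Cdh5 read 5.59 and 6.19 on the P/I arrays and 9.71, 9.06 and 7.12 on unstim arrays 1, 2 and 3. The club cell gene Scgb1a1 read 6.95 and 7.97 on the P/I arrays and 11.17, 10.58 and 8.67 on the unstim arrays. The part of other lung cells in the values of Fas and Tnfrsf1a was not tested. Cdh5, Scgb1a1, Pecam1, Epcam, Zap70, Lyz2, S100a9, Cd3d and Cd3g were singled out after their values were seen. In such bulk samples, fewer cells of a type and less RNA per cell cannot be told apart.

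**Figure D3:**
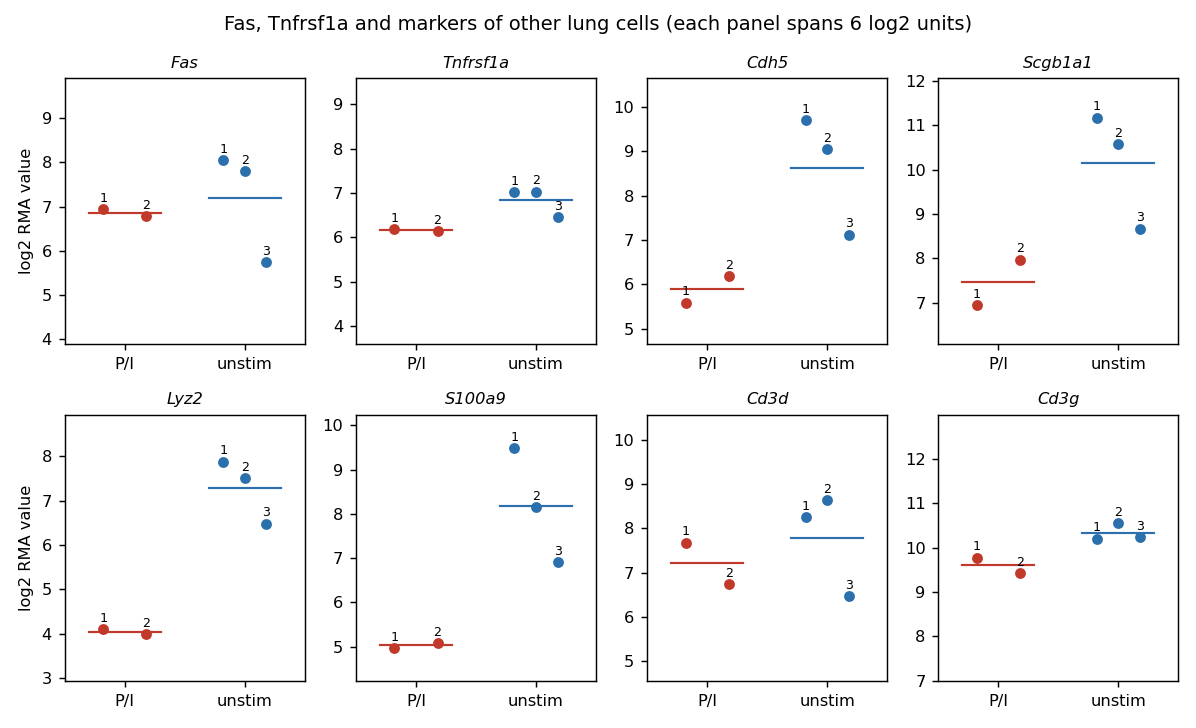
Log2 RMA values of Fas and Tnfrsf1a beside markers of endothelium (Cdh5), airway epithelium (Scgb1a1), myeloid cells (Lyz2, S100a9) and T cells (Cd3d, Cd3g) on the P/I arrays (red, left) and unstim arrays (blue, right), numbered by replicate, with group means as lines. Unstim array 3 is the lowest unstim array in the panels of Fas, Tnfrsf1a, Cdh5, Scgb1a1, Lyz2, S100a9 and Cd3d. For Fas and Cd3d it lies under both P/I arrays. Markers not shown include Pecam1, whose groups overlapped, Csf1r and Siglecf, which were nearly level, and Zap70, which was higher on both P/I arrays.

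The receptor genes lie in few places of the genome. Of the 10, 7 are on chromosome 4 (Tnfrsf1b, Tnfrsf8, Tnfrsf9, Tnfrsf25, Tnfrsf14, Tnfrsf4 and Tnfrsf18, in that order), 2 on chromosome 6 and 1, Fas, on chromosome 19. Tnfrsf1b and Tnfrsf8 are adjacent, as are Tnfrsf4 and Tnfrsf18. On chromosome 6, Cd27 and Tnfrsf1a lie on either side of Ltbr, which codes for the lymphotoxin beta receptor, with 1 other protein-coding gene in each gap. Across that stretch the differences were 1.31 for Cd27, -0.06 for Ltbr and -0.67 for Tnfrsf1a, so adjacent family genes stood on both sides of 0.

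Sequence before the transcription starts is shown for the 3 genes with the highest differences and for Tnfrsf8, which was nearly level. Each run is the 250 bases before a RefSeq start on GRCm38.p6, written 5′ to 3′ on the gene's strand. Capitals mark matches on either strand to the kappaB consensus, bound by NF-kB, and to TGANTCA, bound by AP-1, 2 factor families that phorbol esters are known to activate. Tnfrsf9 has 2 starts in the table, of which the second lies further along the gene.
Tnfrsf9, first start, plus strand, chr4:150919905-150920154: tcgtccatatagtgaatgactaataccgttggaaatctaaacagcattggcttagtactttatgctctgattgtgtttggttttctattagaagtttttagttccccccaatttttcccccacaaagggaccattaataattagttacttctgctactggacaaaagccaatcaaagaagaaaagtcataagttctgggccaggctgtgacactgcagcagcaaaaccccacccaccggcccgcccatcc
Tnfrsf9, second start, plus strand, chr4:150927749-150927998: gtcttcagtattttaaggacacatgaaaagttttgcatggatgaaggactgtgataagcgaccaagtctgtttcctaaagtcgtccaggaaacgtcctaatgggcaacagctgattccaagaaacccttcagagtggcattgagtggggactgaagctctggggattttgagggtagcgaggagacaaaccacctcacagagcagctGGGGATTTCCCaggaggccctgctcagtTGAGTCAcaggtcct
Tnfrsf4, plus strand, chr4:156013445-156013694: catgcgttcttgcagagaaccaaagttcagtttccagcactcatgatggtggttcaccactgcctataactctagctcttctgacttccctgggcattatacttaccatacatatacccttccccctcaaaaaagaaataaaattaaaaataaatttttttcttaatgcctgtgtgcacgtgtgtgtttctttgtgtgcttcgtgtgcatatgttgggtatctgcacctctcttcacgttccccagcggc
Cd27, minus strand, chr6:125237028-125237277: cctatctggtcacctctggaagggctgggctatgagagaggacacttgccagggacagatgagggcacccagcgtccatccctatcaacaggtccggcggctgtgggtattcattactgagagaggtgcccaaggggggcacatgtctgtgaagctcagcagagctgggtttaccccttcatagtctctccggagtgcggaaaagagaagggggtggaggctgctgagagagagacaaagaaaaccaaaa
Tnfrsf8, minus strand, chr4:145315165-145315414: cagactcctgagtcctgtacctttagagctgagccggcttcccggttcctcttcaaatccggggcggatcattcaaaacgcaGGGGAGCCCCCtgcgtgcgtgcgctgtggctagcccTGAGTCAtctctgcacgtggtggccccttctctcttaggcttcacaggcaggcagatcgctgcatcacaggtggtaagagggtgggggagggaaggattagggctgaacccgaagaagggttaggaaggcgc

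The second start of Tnfrsf9 has overlapping kappaB matches from 43 to 33 bases before it and a TGAGTCA 15 to 9 bases before it, and the first start has neither. The Tnfrsf8 window also has both, with overlapping kappaB matches 168 to 158 bases and a TGAGTCA 132 to 126 bases before the start. Tnfrsf8 read between 4.76 and 4.90, under the array medians of 5.63 to 5.66. Without detection calls, its level values cannot be set apart from background. A link between matches and differences was not tested. The windows of Tnfrsf4 and Cd27 have neither. Those of Tnfrsf18 and Tnfrsf14, which were also nearly level and are not shown, have neither. Over the 12 windows of the 10 genes, 3 held a kappaB match (Tnfrsf9, Tnfrsf8 and Tnfrsf25) and 3 a TGANTCA match (Tnfrsf9, Tnfrsf8 and Fas). Of all 32851 windows in the table, 7.25% held a kappaB match and 6.75% a TGANTCA match. The short NFAT core GGAAA, which can lie inside a kappaB match as at the second start of Tnfrsf9, was in 9 of the 12 windows and in 55.6% of all. A match describes letters and is not evidence of binding, and the arrays do not tell the 2 starts of Tnfrsf9 apart.

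The 13 genes listed as ligands of the 10 receptors were all measured, and none was called in either direction. The list includes Ltb, although the lymphotoxin beta receptor gene Ltbr is not among the 10. For 3 of the 13 (Fasl, Cd160 and Tnfsf8) both P/I arrays lay above every unstim array, and for 6, Ltb among them, both lay below. Fasl, which codes for the ligand of Fas, read 7.10 and 7.12 on the P/I arrays, against 5.81, 5.81 and 5.001 on the unstim arrays, a 2.96-fold difference (1.57 ± 0.32 SE, adjusted p = 0.112). Tnfsf8, which codes for the CD30 ligand, read 8.33 and 8.01 against 7.12, 6.77 and 7.29 (adjusted p = 0.102). Cd160, a receptor that binds HVEM, read 7.14 and 6.44 against 5.55, 5.78 and 5.68 (adjusted p = 0.128).

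The ligands of Tnfrsf9, Tnfrsf4 and Cd27, the 3 receptors with the highest differences, stood lower or level. Tnfsf9, the ligand of 4-1BB, read 5.83 and 6.05 on the P/I arrays and 6.75, 7.31 and 6.10 on the unstim arrays (adjusted p = 0.446). Tnfsf4, the OX40 ligand, read 7.11 and 7.24 against 7.31, 7.75 and 7.33 (adjusted p = 0.472), and Cd70, the CD27 ligand, read 4.09 and 4.17 against 4.36, 4.31 and 4.06 (adjusted p = 0.593). Thus no ligand gene of these 3 receptors lay above its unstim range. Tnfsf18, the GITR ligand, differed by -0.82 ± 0.19 SE (adjusted p = 0.138), Ltb, which codes for lymphotoxin beta, by -1.30 ± 0.45 SE (adjusted p = 0.25) and Tnfsf14, which codes for LIGHT, by -0.29 ± 0.19 SE (adjusted p = 0.475). Of the ligands of TNFR1 and TNFR2, Tnf differed by -0.24 ± 0.11 SE (adjusted p = 0.368), with both P/I arrays below every unstim array. Lta differed by 0.15 ± 0.13 SE (adjusted p = 0.544), and its groups overlapped. The DR3 ligand gene Tnfsf15 differed by -0.03 ± 0.02 SE and Btla, a receptor that binds HVEM, by 0.0062 ± 0.0153 SE.

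Of the TRAF adaptor genes, which link these receptors to NF-kB and MAP kinases, 5 of 6 were measured and none was called. Traf1, which is known as an NF-kB target, read 8.23 and 8.24 on the P/I arrays and 8.23, 8.25 and 8.20 on the unstim arrays. Traf2, the adaptor that recruits cIAP ubiquitin ligases, read 7.06 and 7.08 against 7.06, 7.06 and 7.04, and its 95% confidence interval was -0.03 to 0.06 on the log2 scale. Traf5 differed by 0.03, Traf6 by 0.21 and Traf4 by -0.36. All 5 held a value shared by 2 or more arrays. The sheddase genes Adam10 (0.60 ± 0.21 SE, adjusted p = 0.247) and Adam17 (0.19 ± 0.10 SE, adjusted p = 0.425), whose products can cut receptors off the membrane, were not called.

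Among 16 measured genes of the receptor complexes and of cell death control, 1 was called higher and 1 lower, and the list's median was 0.12. Tank, which codes for a TRAF-binding scaffold, read 8.84 and 8.92 on the P/I arrays, against 7.90, 8.00 and 7.95 on the unstim arrays, a rise of 1.90-fold (0.93 ± 0.04 SE, adjusted p = 0.0229). Birc3, which codes for cIAP2, read 8.83 and 8.91 against 9.48, 9.53 and 9.56 and fell by 0.65 on the log2 scale (adjusted p = 0.0323). Birc2, which codes for the related cIAP1, differed by -1.17 ± 0.15 SE without passing (adjusted p = 0.0663). Mlkl, which codes for the pore-forming protein of necroptosis, had the highest difference of that list, at 9.86 and 10.00 on the P/I arrays against 6.73, 6.61 and 7.59 on the unstim arrays, and did not pass (2.95 ± 0.36 SE, adjusted p = 0.0619). Ripk3, the kinase that activates MLKL, differed by 0.47 ± 0.05 SE (adjusted p = 0.0526). Birc2, Mlkl, Ripk3, Casp8 and Cflar were named after their values were seen. The caspase gene Casp8 and its inhibitor Cflar were close to level, with differences of 0.11 ± 0.03 SE for Casp8 and 0.04 ± 0.03 SE for Cflar.

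Of 13 measured NF-kB genes, which code for subunits and inhibitors acting after the receptors, Tnip3 was called higher and Tnfaip3, Nfkbia and Tnip1 lower, with a median of -0.30. Tnip3, whose product binds the deubiquitinase A20, read 10.35 and 10.29 on the P/I arrays, against 5.17, 5.12 and 4.89 on the unstim arrays, a 38.2-fold rise (5.26 ± 0.10 SE, adjusted p = 0.0158). Tnfaip3, which codes for A20 itself, read 8.598 and 8.78 against 10.94, 10.82 and 10.75, and fell by 2.14 on the log2 scale (adjusted p = 0.0229). Nfkbia, which codes for the NF-kB inhibitor IkBa, fell by 2.06 (adjusted p = 0.0456). Tnip1, another A20 partner, fell by 0.65 on the log2 scale (adjusted p = 0.0415). The receptor gene Tnfrsf9 and the A20 partner gene Tnip3 thus lay far above their unstim values on both P/I arrays. The A20 gene Tnfaip3 lay below its own.

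**Figure D4:**
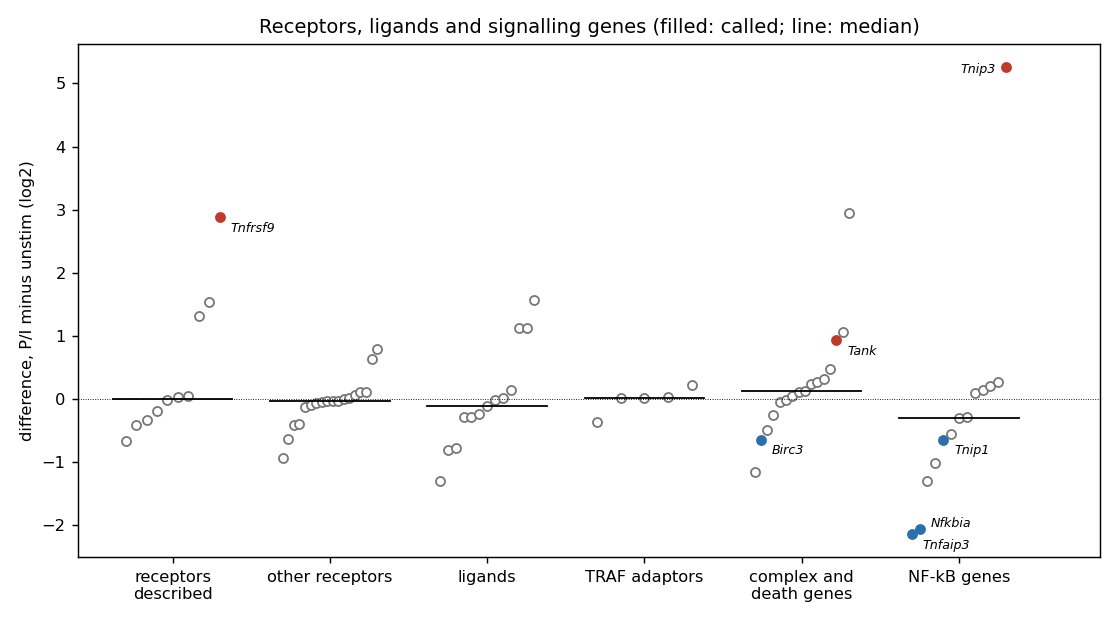
Difference, P/I minus unstim on the log2 scale, of each measured gene among the 10 receptors described, other TNF receptor superfamily genes, ligands, TRAF adaptors, genes of the receptor complexes and cell death, and NF-kB genes. Filled points are called genes, the short line is the list's median, and no ligand, TRAF adaptor or other receptor is filled.

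None of the other 18 TNF receptor superfamily genes measured was called, and their median difference was -0.04. Both P/I arrays lay above the unstim arrays for 2 of them and below for 3. The lowest difference was that of Tnfrsf12a, which codes for the TWEAK receptor Fn14 and is best known in epithelium, endothelium and other tissue cells (-0.93 ± 0.29 SE, adjusted p = 0.208). The highest was that of Tnfrsf22, which codes for a decoy receptor for TRAIL in the mouse and read 6.996 and 7.78 on the P/I arrays, against 6.69, 6.57 and 6.53 on the unstim arrays (adjusted p = 0.247). A value shared by 2 or more arrays was held by 12 of the 18, and Tnfrsf19 read 5.13 on all 5 arrays. Tnfrsf19, and Ltbr above, were singled out after their values were seen.

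The genes whose centred log2 values over the 5 arrays lay nearest to those of Tnfrsf9, by Euclidean distance, were Serpinb9 (0.26), Alcam (0.41), Il4 (0.47), Bcat1 (0.47) and Irf4 (0.48). All 5 were called higher, with differences from 2.49 (Bcat1) to 3.25 (Irf4). Differences like that of Tnfrsf9 follow from picking genes by nearness to it and are no separate result. Serpinb9, which codes for an inhibitor of granzyme B, read 9.001 and 8.88 on the P/I arrays, against 6.06, 6.37 and 6.07 on the unstim arrays. Il4, a type 2 cytokine gene, read 10.21 and 10.29 against 7.49, 7.57 and 7.08. For Tnfrsf1a, the member with the most negative difference, the nearest profiles were those of Fbxo33 (0.10), Yes1 (0.11), Slk (0.11), Isy1 (0.11) and Nfe2l2 (0.13), none of them called. Slk read 9.15 and 9.13 on the P/I arrays and 10.01, 10.08 and 9.55 on the unstim arrays. Its unstim array 3 lay between the other unstim arrays and the P/I arrays, as for Tnfrsf1a. The lack of calls and the like order follow from picking genes by nearness to Tnfrsf1a.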

How the data were processed

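The deposited values are log2 expression values per probe set from RMA, per the submitters' processing notes; its version, software and the arrays normalized together are not given in the sources used here. Per the labels' protocols, 6 micrograms of Trizol-extracted total RNA was labelled with biotin as cRNA and hybridised to Affymetrix arrays. The 5 arrays each held 35556 probe sets, with medians of 5.63 to 5.66. Probe sets were named through the platform annotation, where 21789 had 1 symbol, 1621 had several and 12146 were unnamed here. For a gene with several single-symbol probe sets, that with the highest mean was used, giving 19938 genes.

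Groups came from sample titles. P/I was compared with unstim in limma 3.58.1 under R 4.3.3 (lmFit and eBayes, no filter, Benjamini-Hochberg over all genes). The smallest exact permutation p of 2 against 3 arrays is 0.1, so none was used. Residual degrees of freedom were 3, and the variance prior added 0.649. The number of arrays limits the precision, and depth has no meaning here. The fit was checked on simulated data. Alternatives covered the variance model, array weights, dim-gene filters, probe set choice, normalization, thresholds, a block for replicate numbers and the omission of single arrays.

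The members and gene lists were chosen with earlier results of these data known. All 10 members, ligands, TRAF and sheddase genes could be named. From the other lists it was up to 4 called genes, or, with none called, the highest and lowest difference. The 5 nearest profiles of Tnfrsf9 and of the lowest member left out predicted genes, clones and small RNAs. Promoter sequences are from RefSeq (GRCm38.p6), where all 10 members matched. Plots used matplotlib 3.10.9 in Python 3.11.15.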

Additional observations from a re-analysis of the deposited data

How the results depend on the processing

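Tnfrsf9, Tnfrsf4, Cd27, Tnfrsf25, Tnfrsf1a, Tnfrsf1b and Tnfrsf8 kept their sign under every alternative run (20 each, 18 for Tnfrsf8, which the dim-gene median and the repeated-value filter leave out). Tnfrsf9 stayed between 2.81 and 2.91 and was called under 16 of 20. It lost the call at an adjusted p threshold of 0.01, with the replicate block, without unstim array 2 and against unstim array 3 alone.

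Directions reversed for 3 genes with overlapping groups: with 1 array left out, Tnfrsf18 ran from -0.11 to 0.0725, Tnfrsf14 from -0.0026 to 0.0583 and Fas from -1.06 to 0.0939, and against unstim array 3 alone Tnfrsf18 was 0.087, Tnfrsf14 -0.0238 and Fas 1.12. The causes were not tested.

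Members called higher were 3 without genes dimmer than the median probe set, 2 above the lower quartile, 2 after median centring, 3 after repeated quantile normalization, 2 after cyclic loess, 0 at the stricter threshold, with the replicate block and against unstim array 3 alone, and 0 to 1 with 1 array left out. Members called lower were 0 to 1 with 1 array left out, the 1 being Tnfrsf1a without unstim array 3. Over all genes, calls higher and lower were 45 and 66 with robust variances, 824 and 716 above the median, 317 and 351 above the lower quartile, 660 and 526 after centring, 825 and 729 after quantile normalization, 619 and 666 after cyclic loess, and 63 and 121 with at least 1 log2 unit. At the 0.01 threshold both were 0. With 1 array left out they ran from 0 to 361 higher and 0 to 413 lower. The main counts were 147 and 192.

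Repeated values bear on these counts. At least 2 arrays shared a value in 12359 genes, and 1304 genes had 1 value on all 5. Without the 12359, an alternative chosen after seeing the data as was unstim array 3 alone, limma called 1548 genes higher and 1161 lower, 3 members higher (Tnfrsf9, Tnfrsf4 and Cd27) and 1 lower (Tnfrsf1a, adjusted p = 0.0409). The fit with unstim array 3 alone assumes that this array varies like the P/I arrays, and it called 0 genes (3739 at an unadjusted p under 0.05).

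Replicate numbers 1 and 2 occur in both groups, but the labels do not say that they pair samples. Deviations of same-numbered arrays from their group means correlated at -0.14 and -0.06 over genes. The deviations of the 2 P/I arrays mirror each other, so these values are not separate checks and do not settle whether samples pair. With the replicate block, which leaves 1 residual degree of freedom, 0 genes were called (3568 at an unadjusted p under 0.05), and Tnfrsf9 differed by 2.91 (adjusted p = 0.167).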
